A study of Mus musculus with 17 samples.

Results

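Nid2, Palld, Pygm, Smim10l2a and 2900026A02Rik were the genes whose RNA was higher in both neonatal microglia groups, and lower in both groups from mice with experimental autoimmune encephalomyelitis (EAE), than in adult microglia. They were chosen on these differences, so their levels in the 5 groups are a description and carry no test. The 5 genes are 5 of the 41388 gene IDs counted. Of 13060 genes with enough reads to be tested, 26 genes, or 0.199%, passed an adjusted p of 0.01 or less in this pattern in all 4 comparisons with adult microglia, and these 5 were the ones whose log2 fold change was at least 1 in size in each of the 4.

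Microglia are the resident macrophages of the brain, and their expression programme changes between the period after birth, adulthood and inflammation. The genes belong to unrelated families. Nid2 encodes a nidogen, a secreted glycoprotein that links laminin and collagen networks in basement membranes. Palld encodes palladin, a scaffold of actin bundles and cell adhesions. Pygm encodes the muscle form of glycogen phosphorylase, the enzyme that releases glucose units from glycogen. Smim10l2a encodes a small integral membrane protein, and 2900026A02Rik, also named Kiaa1671, is a protein-coding gene whose function is little known.

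The 17 libraries came from C57BL/6 mice, and each held RNA of microglia pooled from 10 to 15 animals. Neonatal microglia were taken on postnatal day 4 to 6 from pups of mixed sex and sorted into CD11c+ (4 libraries) and CD11c- cells (4 libraries), CD11c being the integrin subunit encoded by Itgax. EAE microglia came from female mice immunized at 7 to 10 weeks of age with a myelin oligodendrocyte glycoprotein peptide in adjuvant and taken at disease grade 3 to 5, and were likewise sorted into CD11c+ (3 libraries) and CD11c- cells (3 libraries). Adult microglia (3 libraries) came from unmanipulated mice of 8 to 12 weeks, and their labels name them both as total and as CD11c-negative cells. Neonatal and adult groups differ in age and in sex make-up. EAE mice, which by the paper's methods also received pertussis toxin, differ from adult mice in immunization, toxin and disease. Since each library is a pool, p-values measure the spread between pools. The paper describes 4 cell sorts behind the neonatal and adult pools and 5 immunizations behind the EAE pools. These are fewer than the libraries, so some libraries share a sort or an immunization. The labels do not say which, and the libraries were tested as independent, also in the EAE subset contrast.

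Counted reads per library ranged from 5115489 to 10436066, and a floor of 3 counts lay at 0.288 to 0.570 CPM, counts scaled to library size. All 11 microglial markers were found in every group, with a summed level of 23700 to 44900 CPM. Neonatal CD11c- library 17 and EAE CD11c+ library 1 stood apart by their mitochondrial share, 5.10% and 2.23% of reads. The levels below are CPM scaled by the trimmed mean of M values (TMM), and comparisons between genes use RPKM, the same values per kilobase of exon. Fewer cells of a type and less RNA per cell cannot be told apart in such bulk samples.

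On the mouse genome (GRCm38) the genes lie on different chromosomes. Nid2 spans chr14:19751265-19811787 on the plus strand, Palld chr8:61511433-61902690 on the minus strand and Pygm chr19:6384399-6398459 on the plus strand. Smim10l2a spans chrX:56374586-56377799 on the plus strand, and 2900026A02Rik chr5:113086323-113221236 on the minus strand. All 5 are annotated as protein-coding. The RefSeq promoter windows (GRCm38.p6) reach from 250 bases before to 50 bases after a transcription start. They were read for 4 of the genes in 7 windows, with no entry for Nid2. The shared direction of the genes came from how they were chosen. The windows below are the single ones of Pygm and Smim10l2a, the upstream one of 2900026A02Rik and the windows of Palld that held a marked motif. Capitals mark matches, on either strand, to GAGGAAG (bound by PU.1, the lineage factor of macrophages), TGANTCA (AP-1), GGGCGG (SP and KLF factors) and TATAAA.
Pygm, chr19:6384158-6384457, plus strand: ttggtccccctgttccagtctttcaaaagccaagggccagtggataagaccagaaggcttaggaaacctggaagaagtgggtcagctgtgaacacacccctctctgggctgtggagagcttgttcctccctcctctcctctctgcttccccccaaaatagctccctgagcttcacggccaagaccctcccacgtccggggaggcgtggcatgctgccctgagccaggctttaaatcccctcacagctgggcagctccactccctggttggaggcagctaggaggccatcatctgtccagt
Smim10l2a, chrX:56374267-56374566, plus strand: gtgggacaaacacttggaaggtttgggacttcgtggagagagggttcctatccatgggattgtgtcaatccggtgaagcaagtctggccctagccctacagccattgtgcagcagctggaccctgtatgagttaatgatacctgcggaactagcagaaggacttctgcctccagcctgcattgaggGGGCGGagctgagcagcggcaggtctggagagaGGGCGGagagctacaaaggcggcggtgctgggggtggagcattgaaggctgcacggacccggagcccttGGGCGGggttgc
2900026A02Rik, upstream window, chr5:113221227-113221526, minus strand: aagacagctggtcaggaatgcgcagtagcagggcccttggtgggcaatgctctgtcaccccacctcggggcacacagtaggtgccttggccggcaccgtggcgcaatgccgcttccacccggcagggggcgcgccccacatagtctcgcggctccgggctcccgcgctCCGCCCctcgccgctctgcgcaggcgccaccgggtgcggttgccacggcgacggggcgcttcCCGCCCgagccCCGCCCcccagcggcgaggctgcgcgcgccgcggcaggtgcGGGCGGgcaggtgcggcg
Palld, middle window, chr8:61760040-61760339, minus strand: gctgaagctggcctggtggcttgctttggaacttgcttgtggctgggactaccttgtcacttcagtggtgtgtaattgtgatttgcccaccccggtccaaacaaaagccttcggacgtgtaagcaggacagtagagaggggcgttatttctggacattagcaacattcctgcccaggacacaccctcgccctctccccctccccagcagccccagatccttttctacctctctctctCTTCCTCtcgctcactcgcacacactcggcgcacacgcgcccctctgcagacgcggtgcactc
Palld, most downstream window, chr8:61591090-61591389, minus strand: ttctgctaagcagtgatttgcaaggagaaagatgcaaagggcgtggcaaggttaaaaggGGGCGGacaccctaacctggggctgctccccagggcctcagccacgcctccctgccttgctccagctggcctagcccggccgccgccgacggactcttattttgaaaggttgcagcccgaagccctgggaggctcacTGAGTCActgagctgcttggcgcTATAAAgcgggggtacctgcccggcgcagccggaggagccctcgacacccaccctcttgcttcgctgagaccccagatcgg
The capital runs do not overlap each other. GGGCGG was found in both windows of 2900026A02Rik (4 and 2 matches), in the single window of Smim10l2a (3 matches) and in the most downstream window of Palld (1 match), and 35.7% of all 32851 windows hold it. GAGGAAG was found in the middle window of Palld, as in 13.6% of all windows, and TGANTCA and TATAAA in its most downstream window, as in 7.81% and 13.6% of all windows. None of the motifs in capitals was in all 4 genes. Of the other motifs searched on both strands, the E-box CANNTG was found in every window but the middle one of Palld, and so in all 4 genes, as in 72.3% of all windows. CCAAT, which is in 37.4% of all windows, and the interferon-response and MEF2 motifs, in 3.44% and 3.69%, were in none of the 7. GC content was 76.0% in the upstream and 68.7% in the other window of 2900026A02Rik, 58.7% in that of Pygm and 59.7% in that of Smim10l2a. The Palld windows had 44.0%, 57.7% and 63.0%, the most upstream first. The median over all windows was 52.7%.

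Nid2, the basement membrane gene, was the most abundant of the 5. Adult libraries held 85.8, 71.5 and 72.7 CPM. Neonatal CD11c- libraries held 284, 279, 244 and 274 CPM and neonatal CD11c+ libraries 184, 201, 186 and 171 CPM, so that the groups stood in clear steps. In EAE the level was 23.6, 20.2 and 30.4 CPM in CD11c- and 9.69, 11.7 and 12.2 CPM in CD11c+ libraries. No neighbouring groups in this order overlapped. The mean was 3.52 times the adult mean in neonatal CD11c- and 2.42 times in neonatal CD11c+ microglia. The adult mean was 3.10 times that of EAE CD11c- and 6.85 times that of EAE CD11c+ microglia. Per length, Nid2 reached 52.2 ± 3.53 RPKM (SD, n = 4) in neonatal CD11c- microglia, above 94.9% of the genes tested in that group, and 2.16 ± 0.255 RPKM (SD, n = 3) in EAE CD11c+ microglia, above 29.1%.

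Palld, the actin scaffold gene, was the least abundant. It was counted at 2.57, 1.91 and 1.94 CPM in adult libraries. Neonatal CD11c- libraries held 10.6, 9.68, 6.11 and 5.76 CPM and neonatal CD11c+ libraries 12.6, 10.2, 12.3 and 9.60 CPM, which overlapped each other and lay above every adult library. EAE CD11c- libraries held 0.865, 0.862 and 0.519 CPM, or 8, 9 and 4 counts, below every adult library. In EAE CD11c+ libraries there were 1, 2 and 3 counts (0.176, 0.255 and 0.415 CPM), all at or under the floor. The ratio of the pooled adult to the pooled EAE CD11c+ level was 7.38 with a counting interval of 3.18 to 21.0, from 54 and 6 counts, and the interval covers counting error only. Per length, Palld reached 1.09 ± 0.145 RPKM (SD, n = 4) in neonatal CD11c+ microglia, above 20.1% of the genes tested.

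Pygm, the glycogen phosphorylase gene, had the steepest difference between neonates and adults. Adult libraries held 9.06, 7.87 and 5.17 CPM. Neonatal CD11c- libraries held 71.1, 68.7, 62.5 and 66.6 CPM and neonatal CD11c+ libraries 58.8, 56.7, 60.4 and 49.1 CPM. These levels lay far above every adult library, at 9.13 and 7.64 times the adult mean. EAE CD11c- libraries held 2.59, 2.78 and 2.99 CPM and EAE CD11c+ libraries 2.29, 2.04 and 2.35 CPM, below all adult libraries. The adult mean was 2.64 and 3.31 times those of the EAE groups. On the per-length scale Pygm stood above 31.6% of the genes tested in adult microglia, above 83.5% in neonatal CD11c- microglia and above 14.9% in EAE CD11c+ microglia.

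Smim10l2a, the membrane protein gene on the X chromosome, was at 5.87, 9.04 and 4.91 CPM in adult libraries. Neonatal CD11c- libraries held 18.2, 20.8, 24.8 and 22.5 CPM and neonatal CD11c+ libraries 24.6, 22.6, 24.0 and 16.8 CPM. The neonatal subsets overlapped, with means of 3.26 and 3.33 times the adult mean. EAE CD11c- libraries held 2.70, 1.82 and 1.82 CPM and EAE CD11c+ libraries 0.881, 1.91 and 0.553 CPM, also overlapping. These came from 14 to 25 and from 4 to 15 counts per library, so counting error is large there. Without EAE CD11c+ library 2 the log2 fold change against adult moved from -2.52 to -3.23.

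For 2900026A02Rik, adult libraries held 18.7, 13.6 and 17.3 CPM. Neonatal CD11c- libraries held 52.2, 60.9, 70.3 and 61.2 CPM and neonatal CD11c+ libraries 81.7, 89.6, 83.5 and 73.4 CPM. The CD11c+ group was the highest of the 5 and did not overlap the CD11c- group. EAE CD11c- libraries held 8.21, 8.34 and 8.18 CPM and EAE CD11c+ libraries 4.76, 6.62 and 6.64 CPM. The adult mean of 16.6 ± 2.64 CPM (SD, n = 3) was 2.01 and 2.76 times the EAE means.

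**Figure D1:**
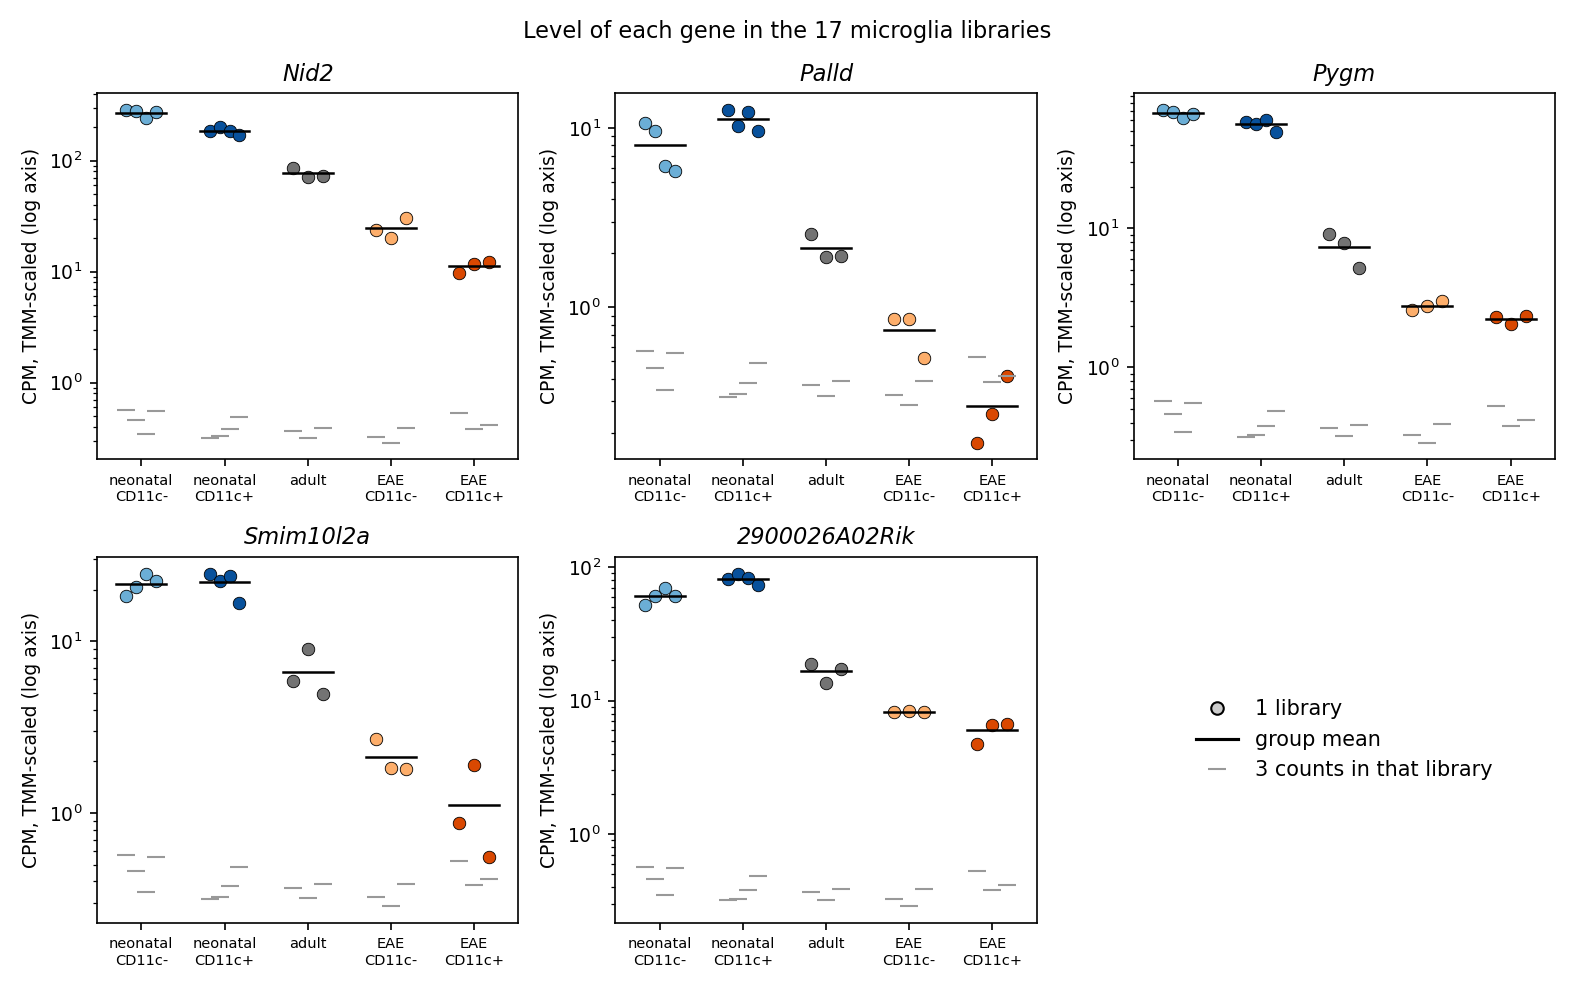
TMM-scaled CPM on a log axis (vertical) of each of the 5 genes in the 17 libraries, by group (horizontal), with points for libraries, black bars for group means and grey ticks for 3 counts in a library. Neonatal points lie above and EAE points below all adult points for each gene, and the 3 Palld points of EAE CD11c+ microglia lie at or under their ticks.

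The size of the difference from adult microglia varied among the genes. Against adult, the log2 fold changes in neonatal CD11c- and CD11c+ microglia were 3.18 (SE 0.15) and 2.93 (SE 0.15) for Pygm, the largest of the 5. They were 1.82 (SE 0.13) and 1.28 (SE 0.13) for Nid2, where the CD11c+ value was the smaller. For 2900026A02Rik the values were 1.89 (SE 0.14) and 2.31 (SE 0.14), for Palld 1.90 (SE 0.26) and 2.38 (SE 0.26), and for Smim10l2a 1.70 (SE 0.24) and 1.73 (SE 0.24). Downward in EAE CD11c- and CD11c+ microglia, Nid2 stood at -1.64 (SE 0.14) and -2.77 (SE 0.15), beside -1.0 (SE 0.16) and -1.44 (SE 0.17) for 2900026A02Rik. Palld had -1.47 (SE 0.35) and -2.82 (SE 0.45), a fitted value that rests on the 6 counts above. Pygm had -1.41 (SE 0.19) and -1.73 (SE 0.21), and Smim10l2a -1.65 (SE 0.30) and -2.52 (SE 0.35). The 4 comparisons share the 3 adult libraries, so they are not independent of each other.

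**Figure D2:**
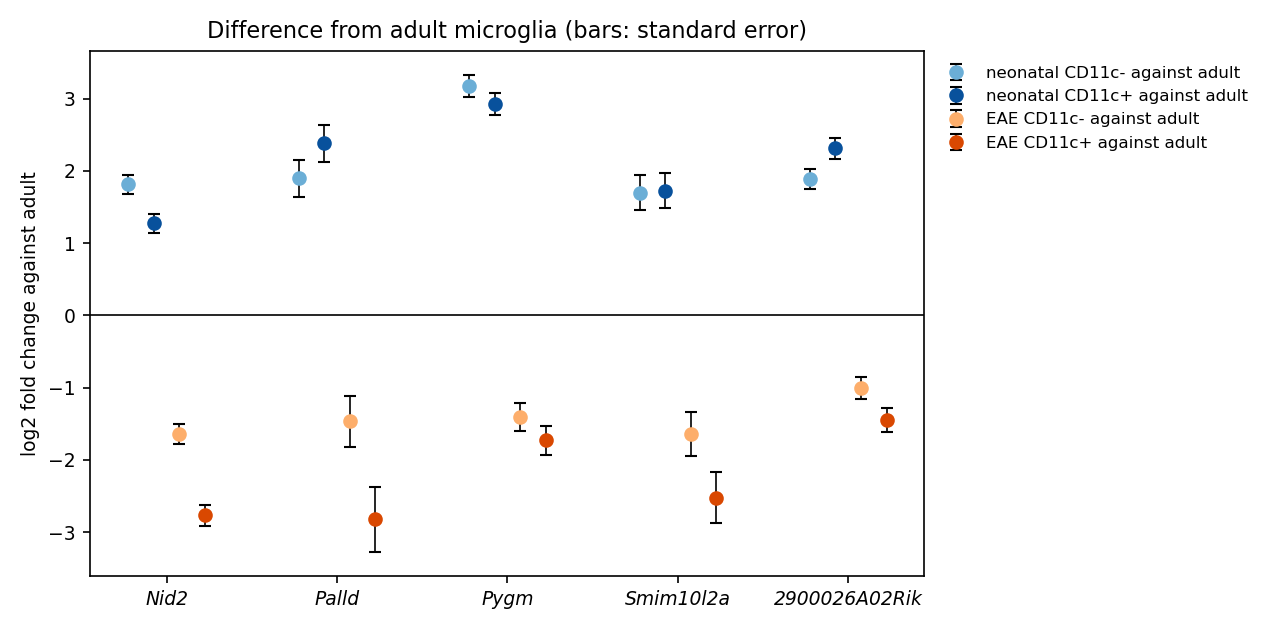
Log2 fold change against adult microglia (vertical) of the 5 genes (horizontal) in each of the other 4 groups, with the standard error of the model as bars. Every neonatal value lies between 1.28 and 3.18 and every EAE value between -2.82 and -1.0.

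At the edge of the choice, the smallest of the 4 log2 fold changes was 1.00 in size for 2900026A02Rik, just inside, and 0.98 for Thsd1, a transmembrane thrombospondin-repeat protein gene, just outside. Without adult library 21, or without any one of the EAE CD11c- libraries, Palld no longer passed in all 4 comparisons. Thsd1 averaged 10.6 and 11.3 CPM in the neonatal CD11c- and CD11c+ groups, 5.37 CPM in adult and 1.70 and 1.15 CPM in the EAE CD11c- and CD11c+ groups. Next came Slc12a2, which encodes a sodium, potassium and chloride cotransporter, at 0.95, and S1pr1, a receptor for sphingosine-1-phosphate, at 0.93. Rnf144b, a ubiquitin ligase gene, and Zdhhc14, a palmitoyltransferase gene, followed at 0.79 and 0.78. The opposite pattern, lower in both neonatal and higher in both EAE groups, was passed by 86 genes.

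**Figure D3:**
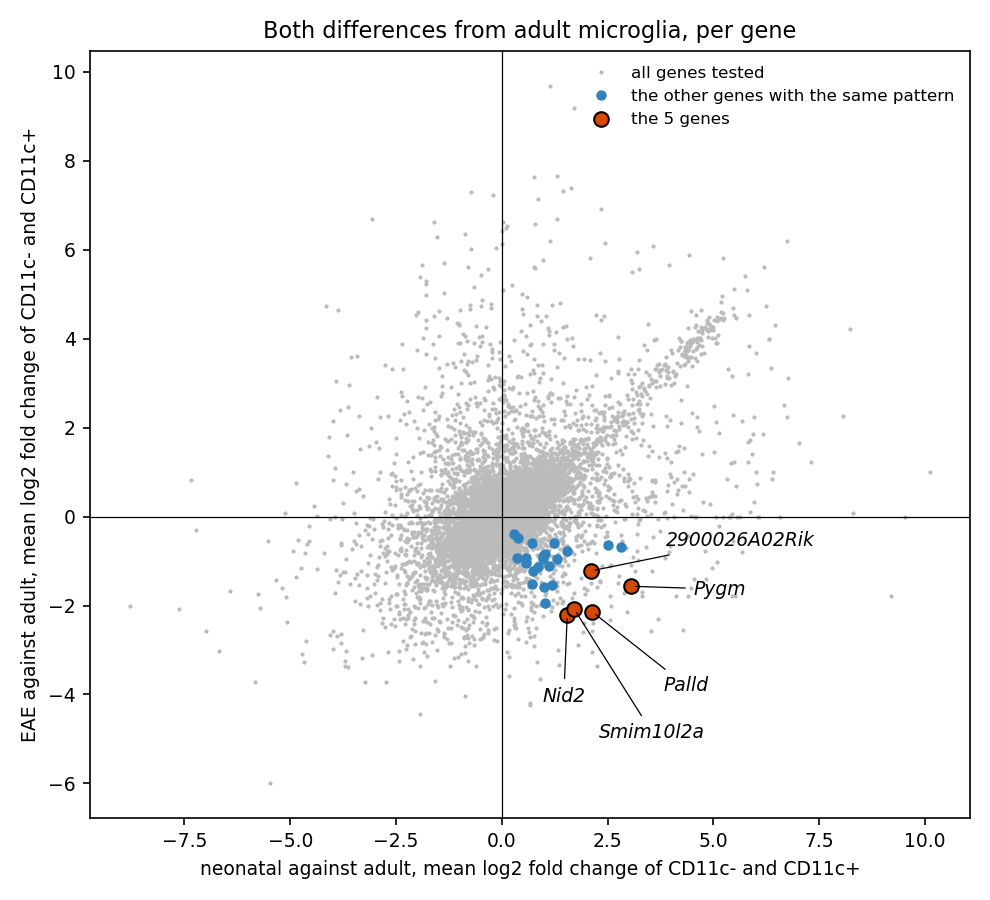
Mean log2 fold change against adult of the neonatal groups (horizontal) and of the EAE groups (vertical) for the 13060 genes tested, with the 26 genes of the same pattern marked and the 5 genes named. Pygm lies farthest to the right of the 5, and Nid2, Palld and Smim10l2a lie lowest.

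The contrast between CD11c+ and CD11c- microglia was not used to choose the genes and could be tested with the quasi-likelihood test of edgeR. Nid2 was lower in CD11c+ than in CD11c- cells in both conditions. In neonates its log2 fold change was -0.54 (SE 0.11, adjusted p = 0.0032 by edgeR), and no CD11c+ library reached the lowest CD11c- library. Without neonatal CD11c+ library 13 or without library 16 the adjusted p was 0.012 by edgeR, past the threshold of 0.01. In EAE the log2 fold change of Nid2 was -1.13 (SE 0.15, adjusted p = 9.1e-05 by edgeR), again with no overlap. Without libraries 1 and 17 both calls held, at -0.52 (adjusted p = 0.0017 by edgeR) in neonates and -1.05 (adjusted p = 0.00033) in EAE. A fit of only these 2 groups gave -1.14 with an adjusted p of 0.013 by edgeR. The difference of the Nid2 effects between neonates and EAE was 0.59 (95% confidence interval 0.19 to 0.99, adjusted p = 0.089 by edgeR) and did not pass. Summed neutrophil markers were lower in CD11c+ than in CD11c- libraries in both conditions. Summed border macrophage markers were higher in neonatal CD11c+ than in neonatal CD11c- libraries. The values are given below, and the part of these cells in the subset contrasts was not tested.

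The other 4 genes did not pass in either condition. In neonates 1 of the 5 genes passed downward, beside 2.2% of all genes tested, and 0 passed upward, beside 5.58%. With an unadjusted p under 0.05 by edgeR, 2 genes were higher, and 1 gene, 2900026A02Rik, passed upward with DESeq2. For 2900026A02Rik the log2 fold change in neonates was 0.42 (95% confidence interval 0.18 to 0.67, adjusted p = 0.021 by edgeR and 0.0081 by DESeq2). Palld had 0.49 (0.05 to 0.92, adjusted p = 0.12), Pygm -0.25 (-0.50 to -0.01, adjusted p = 0.15) and Smim10l2a 0.03 (-0.40 to 0.46, adjusted p = 0.94), all by edgeR with 95% confidence intervals. Without library 17, 13 or 15 the Smim10l2a value turned, to -0.05, -0.04 and -0.02. In EAE 1 of 5 genes passed downward, beside 2.63% of all genes, and none upward, beside 1.7%. None of the 5 lay upward there by edgeR or DESeq2, and 4 lay downward at an unadjusted p under 0.05 by edgeR. Palld had -1.35 (-2.46 to -0.24, adjusted p = 0.16), Smim10l2a -0.87 (-1.72 to -0.03, adjusted p = 0.23), 2900026A02Rik -0.44 (-0.81 to -0.08, adjusted p = 0.15) and Pygm -0.32 (-0.81 to 0.16, adjusted p = 0.57), all by edgeR with 95% confidence intervals.

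**Figure D4:**
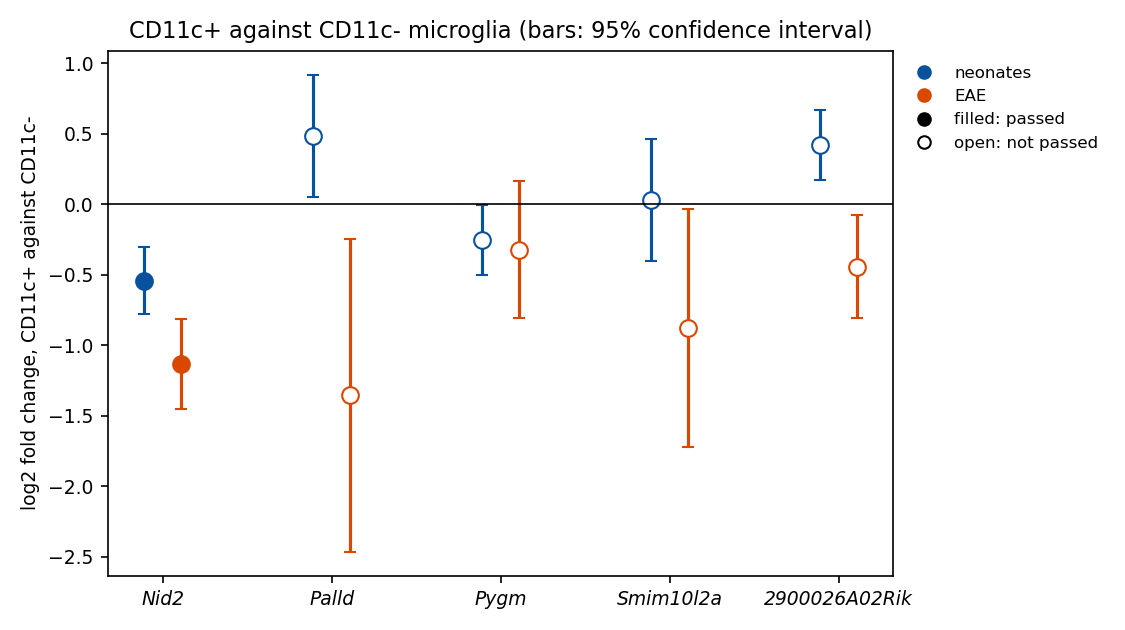
Log2 fold change of CD11c+ against CD11c- microglia (vertical) of the 5 genes (horizontal) in neonates and in EAE, with 95% confidence intervals as bars and filled points where the adjusted p was 0.01 or less. Both filled points belong to Nid2, at -0.54 in neonates and -1.13 in EAE.

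Palld and 2900026A02Rik pointed up in neonates and down in EAE, so the difference between the 2 subset effects was tested as an interaction. Of the 5 genes 0 passed in either direction, beside 1.45% of all genes upward and 0.107% downward, while 3 had an unadjusted p under 0.05 by edgeR. The interaction of 2900026A02Rik was 0.86 (95% confidence interval 0.42 to 1.30, adjusted p = 0.025 by edgeR), and it was the 1 gene that passed with DESeq2 (adjusted p = 0.010). That of Palld was 1.84 (0.65 to 3.03, adjusted p = 0.077 by edgeR), that of Smim10l2a 0.90 (-0.04 to 1.85, adjusted p = 0.27 by edgeR) and that of Pygm 0.07 (-0.47 to 0.60, adjusted p = 0.91 by edgeR).

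Pygm is one of a family of glycogen phosphorylase genes with Pygl, the liver form, and Pygb, the brain form, and the make-up of this family differed between the groups. Per length, Pygm made up 13.9%, 11.9% and 7.99% of the summed RPKM of the family in adult libraries. Its share was 56.8%, 47.3%, 45.2% and 49.5% in neonatal CD11c- and 37.1%, 36.8%, 40.5% and 36.1% in neonatal CD11c+ libraries. The neonatal subsets did not overlap, and Pygm held the largest share of the family in every neonatal CD11c- library. In EAE the share was 3.27%, 3.17% and 2.75% in CD11c- and 5.29%, 3.65% and 3.80% in CD11c+ libraries. Pygb held 67.8% ± 1.08 (SD, n = 3) in adult microglia, and Pygl 56.1% ± 5.35 (SD, n = 3) in EAE CD11c- microglia. The summed level of the 3 genes was 20.3 ± 0.207 RPKM (SD, n = 3) in adult, 42.2 ± 2.61 and 46.5 ± 3.02 RPKM (SD, n = 4 each) in neonatal CD11c- and CD11c+, and 28.5 ± 4.64 and 16.7 ± 2.93 RPKM (SD, n = 3 each) in EAE CD11c- and CD11c+ microglia.

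**Figure D5:**
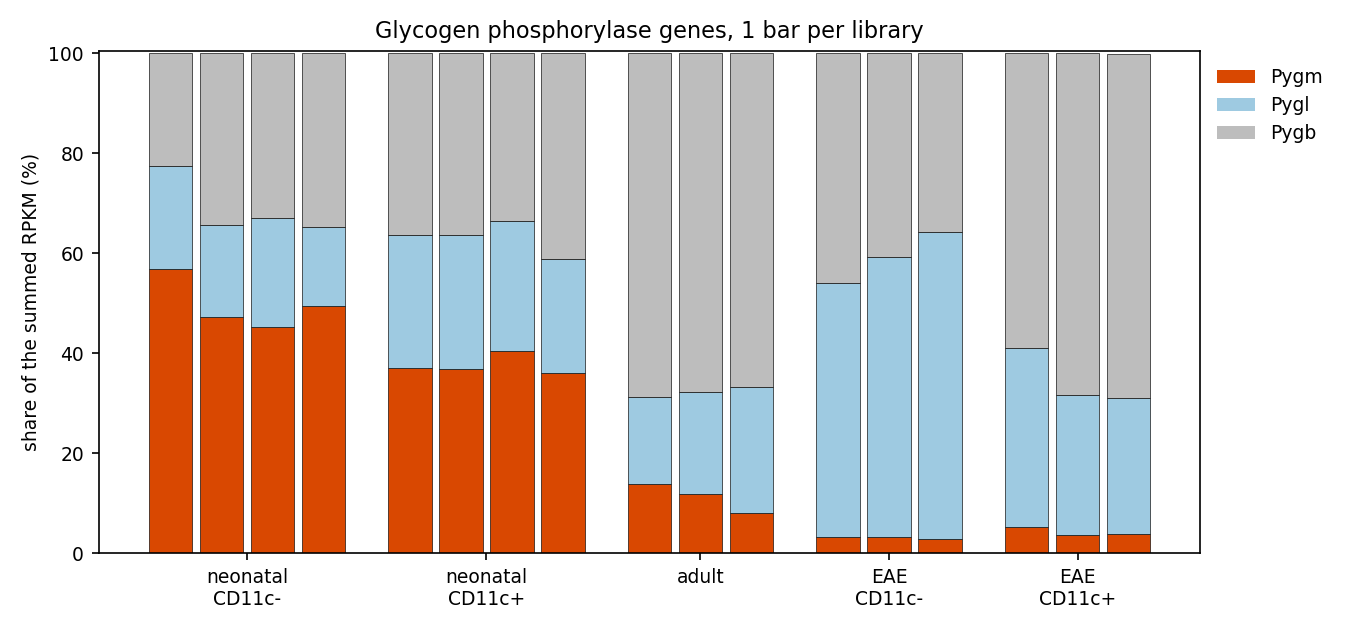
Share of Pygm, Pygl and Pygb in their summed RPKM (vertical, %), with 1 stacked bar for each library, by group (horizontal). The Pygm share is 45.2% to 56.8% in neonatal CD11c- libraries, 7.99% to 13.9% in adult and at most 5.29% in EAE libraries.

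Pygl and Pygb did not follow Pygm. Pygl was higher than in adult microglia in neonatal CD11c- cells (log2 fold change 0.93, SE 0.18, adjusted p = 0.00044 by edgeR), in neonatal CD11c+ cells (1.48, SE 0.18, adjusted p = 2.2e-06) and in EAE CD11c- cells (1.92, SE 0.19, adjusted p = 4.1e-07). In EAE CD11c+ cells Pygl differed from adult by 0.22 (SE 0.19, adjusted p = 0.38 by edgeR). Its level thus fell between the EAE subsets, from 111 ± 28.7 to 34.2 ± 1.74 CPM (SD, n = 3 each), with a log2 fold change of -1.70 (SE 0.18, adjusted p = 9.5e-06 by edgeR). Summed neutrophil markers stood at 6780 to 13000 CPM in EAE CD11c- and 43.2 to 76.5 CPM in EAE CD11c+ libraries, with all 9 markers found, and their part in this difference was not tested. Pygb passed in none of the 7 comparisons by edgeR, with log2 fold changes of -0.32 to 0.42.

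Of 31 listed genes of glycogen turnover, Pygl and Pygb among them, 27 were tested, so the counts below include Pygl. Beside 13.4% of all genes higher and 11.8% lower, 5 were higher and 4 lower in neonatal CD11c- than in adult microglia. In neonatal CD11c+ microglia the counts were 8 and 4, beside 18.7% and 14.6%. Gyg, glycogenin, which primes glycogen synthesis, was higher than in adult microglia in all 4 groups, by 0.57 (adjusted p = 0.0019), 1.45 (5.0e-08), 1.44 (2.4e-07) and 1.67 (2.2e-08) as log2 fold changes by edgeR, the neonatal groups first and CD11c- before CD11c+. Stbd1, a glycogen-binding membrane protein, was lower in both neonatal groups, at 1.44 ± 0.530 and 1.40 ± 0.380 CPM (SD, n = 4 each) beside 8.38 ± 1.15 CPM (SD, n = 3) in adult. It was also lower in EAE CD11c+ microglia (-1.42, adjusted p = 0.00034 by edgeR) and at -0.88 (adjusted p = 0.013) in EAE CD11c- microglia. In EAE, 5 genes were higher and 0 lower by edgeR in CD11c- microglia, beside 11.2% and 4.55%, with 4 lower at an unadjusted p under 0.05 and 1 lower by DESeq2. There were 7 higher and 4 lower in CD11c+ microglia, beside 15.8% and 10.6%. Gys1, the glycogen synthase of most tissues, was likewise higher in all 4 groups, by 0.57 (adjusted p = 0.0051 by edgeR) and 0.95 (3.7e-05) in neonatal CD11c- and CD11c+, and by 0.87 (0.00035) and 0.87 (0.00023) in EAE CD11c- and CD11c+ microglia. The median log2 fold change of the list was 0.03, 0.10, 0.02 and 0.00 in the 4 comparisons, beside medians of -0.01 to 0.01 over all genes tested.
Between the subsets, Pgm1, Gyg and Gaa, the lysosomal glycogen-degrading enzyme, were higher in neonatal CD11c+ cells by 0.89 (adjusted p = 7.9e-06), 0.88 (3.7e-05) and 0.75 (5.8e-05) on the log2 scale by edgeR. Gaa was also higher in EAE CD11c+ cells, by 0.58 (SE 0.12, adjusted p = 0.0036 by edgeR).

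The other nidogen gene, Nid1, was all but absent. It had 0 counts in every adult and EAE CD11c+ library, which allows 3 counts per library, and at most 10 counts in a neonatal CD11c+ library. Of 27 listed genes of basement membranes 14 were tested, of which 6 were higher and 3 lower in neonatal CD11c- and 7 higher and 2 lower in neonatal CD11c+ than in adult microglia, against the background shares given above. The median log2 fold change of the list was 0.91 and 0.98 in these comparisons. The laminin chain genes Lamb2 and Lamc1 rose in both, Lamb2 by 1.15 (adjusted p = 6.8e-07 by edgeR) and 1.07 (1.1e-06), and Lamc1 by 1.32 (5.7e-06) and 1.66 (2.3e-07) on the log2 scale. Dag1, dystroglycan, a laminin receptor, rose by 0.95 (adjusted p = 0.00019 by edgeR) and 0.97 (0.00011). In EAE CD11c- microglia 0 were higher by edgeR, 1 at an unadjusted p under 0.05 and 0 by DESeq2, and 1 was lower, beside 11.2% and 4.55% of all genes. In EAE CD11c+ microglia 2 genes passed upward and 1 downward, beside 15.8% and 10.6%, and the list medians were -0.04 and -0.20 in the EAE groups. Lamc1 was higher in EAE CD11c+ than in adult microglia (0.68, SE 0.17, adjusted p = 0.0046 by edgeR). Col15a1, a basement membrane collagen gene, fell in all 4 groups, from 122 ± 9.25 CPM (SD, n = 3) in adult to group means of 38.7 to 61.8 CPM. Between the neonatal subsets 2 genes of the list were higher in CD11c+ cells, beside 5.58% of all genes, and 1 was lower, beside 2.2%. Fbln5, fibulin, an elastic fibre protein gene, was higher by 3.41 (SE 0.42, adjusted p = 2.4e-05 by edgeR) and Lama3, a laminin chain gene, by 1.69 (SE 0.38, adjusted p = 0.0057). Sparc, a secreted matrix protein gene, was the lower one (-0.54, SE 0.10, adjusted p = 0.0012 by edgeR), and in EAE it differed by -0.05 (SE 0.12, adjusted p = 0.88).

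The palladin relatives Mypn and Myot had at most 1 count in any library. Of 29 listed actin partners of palladin 25 were tested. In neonatal CD11c- microglia 5 were higher and 3 lower than in adult, beside 13.4% and 11.8% of all genes, and in neonatal CD11c+ microglia 9 and 2, beside 18.7% and 14.6%. Flna, filamin, which crosslinks actin, rose by 1.36 in both neonatal groups (SE 0.18, adjusted p = 1.3e-05 and 8.7e-06 by edgeR), and Actn4, an alpha-actinin gene, by 0.76 (2.1e-05) and 0.78 (1.2e-05). Fscn1, fascin, an actin-bundling protein, fell from 638 ± 27.9 CPM (SD, n = 3) in adult to means of 119 to 206 CPM in the other 4 groups. In EAE 7 were higher and 2 lower in CD11c- microglia, beside 11.2% and 4.55% of all genes, and 2 and 4 in CD11c+ microglia, beside 15.8% and 10.6%. Flna was higher in EAE CD11c- (1.01, adjusted p = 0.00061 by edgeR) and at 0.21 (adjusted p = 0.40) in EAE CD11c+ microglia. Actn4 was at 0.34 (adjusted p = 0.035) and 0.35 (adjusted p = 0.020) in the EAE groups. Actn1, another alpha-actinin gene, and Vcl, vinculin, were lower in EAE CD11c+ than in EAE CD11c- cells by -2.51 (SE 0.18, adjusted p = 2.5e-07 by edgeR) and -2.20 (SE 0.23, adjusted p = 5.9e-06), and differed by -0.19 (adjusted p = 0.38) and -0.13 (adjusted p = 0.69) between the neonatal subsets. The neutrophil markers given above differ in the same direction between the EAE subsets, and their part was not tested.

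Smim10l1, a relative of Smim10l2a, passed in none of the 7 comparisons by edgeR, with group means of 35.6 to 50.01 CPM.

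Genes near the 5 loci were tested in the same 4 comparisons. Of the 20 nearest tested neighbours, with 2 on each side of each gene, 0 passed in all 4 comparisons with adult microglia. In neonatal CD11c- microglia 3 were higher and 1 lower, beside 13.4% and 11.8% of all genes, and in neonatal CD11c+ microglia 4 and 3, beside 18.7% and 14.6%. In EAE 1 was higher and 1 lower in CD11c- microglia, beside 11.2% and 4.55%, and 1 and 4 in CD11c+ microglia, beside 15.8% and 10.6%. Sh3rf1, 115362 bases from Palld, was higher in the neonatal CD11c- and CD11c+ groups (log2 fold changes 1.34 and 0.96, adjusted p = 0.00067 and 0.0067 by edgeR) and at 0.06 and 0.39 in EAE (adjusted p = 0.91 and 0.33). Rasgrp2, 881 bases from Pygm, was higher in EAE CD11c- microglia (2.3, SE 0.47, adjusted p = 0.0013 by edgeR), where Pygm was low. Myo18b, 189961 bases from 2900026A02Rik, was lower in both EAE groups (-1.68 and -3.04, adjusted p = 0.00011 and 1.8e-07 by edgeR) and at -0.14 and -0.78 in neonates (adjusted p = 0.68 and 0.012).

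Some reads of the 5 genes may be shared with others. Nid2 overlaps Rtraf on the opposite strand by 437 exon bases, and the strand setting of the counting was not given. Rtraf was higher than adult in neonatal CD11c- (0.47, SE 0.12, adjusted p = 0.0062 by edgeR), neonatal CD11c+ (0.73, SE 0.12, adjusted p = 9.8e-05) and EAE CD11c+ microglia (1.07, SE 0.13, adjusted p = 3.5e-06), and at 0.41 (SE 0.13, adjusted p = 0.028) in EAE CD11c- microglia. Its part in the Nid2 counts was not tested. An antisense gene in an intron of Palld, 4930512H18Rik, shares no exon base with it and had 53 counts over all libraries. For Smim10l2a, 29.3% of its 50-base stretches also occur in AW822252 or in the antisense gene Gm2155, so its level is uncertain. AW822252 had at most 11 counts in a library and Gm2155 at most 5. The shares were 7.5% for Nid2, 0.405% for Pygm and 0.381% for 2900026A02Rik, and no stretch of Palld was shared.

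The likeness of profiles was measured as the root mean square difference of log2 CPM over the 17 libraries, each profile centred on its mean, and is a description across libraries that share their groups. Nearest to 2900026A02Rik was Scd2, a stearoyl-CoA desaturase gene, at 0.29 log2 units, beside a median of 1.56 over all genes tested. Scd2 stood at 606 and 886 CPM in neonatal CD11c- and CD11c+, 128 CPM in adult and 82.2 and 81.6 CPM in EAE CD11c- and CD11c+ microglia, with the same order of the neonatal subsets. Nearest to Palld was 2900026A02Rik at 0.39, and nearest to Smim10l2a was Nid2 at 0.43. Both depended on the prior count of the log scale: with 0.5 in place of 2, Homer2 (0.53) was nearest to Palld and 2900026A02Rik left its nearest 3, and Smpd3 (0.45) was nearest to Smim10l2a. Nid2 lay nearest to Stox2, a gene of the storkhead-box family, at 0.42. Pygm lay farther from all others, with Igfbp4, an IGF-binding protein gene, at 0.50 and Epor, the erythropoietin receptor gene, at 0.56. Egfl7, an endothelial marker given below, followed at 0.60. Igfbp4 stood at 385 and 318 CPM in the neonatal CD11c- and CD11c+, 49.9 CPM in the adult and 31.9 and 30.6 CPM in the EAE CD11c- and CD11c+ groups. Among the 5 genes the distances ran from 0.39 between Palld and 2900026A02Rik to 0.67 between Pygm and Smim10l2a.

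Markers of other cells moved with some groups. The 8 markers of border macrophages, all found, summed to 904 to 1320 CPM in neonatal CD11c- and 1500 to 3440 CPM in neonatal CD11c+ libraries. They summed to 48.5 to 119 CPM in adult and 69.3 to 83.2 CPM in EAE libraries. Mrc1 averaged 966 and 1337 CPM, Lyve1 22.4 and 258 CPM and F13a1 20.3 and 345 CPM in neonatal CD11c- and CD11c+ microglia. Adult means were 53.6 CPM for Mrc1, 2.6 CPM for Lyve1 and 8.63 CPM for F13a1. In neonatal CD11c- microglia Mrc1 made up most of the sum. Cbr2 (3.44 beside 2.59 CPM in adult) and Clec10a (2.02 beside 2.23 CPM) lay near adult there. The border macrophage sum was higher in neonates but not lower in both EAE groups than in every adult library. The part of these cells in the neonatal levels and subset contrasts was not tested. The 8 monocyte markers summed to 998 to 1550 CPM in EAE libraries beside 77.6 to 149 CPM in adult, and their part in the EAE levels was not tested. Neutrophil markers were above adult (907 to 1830 CPM) in EAE CD11c- libraries and below it in EAE CD11c+ libraries, and their part in the levels of the 5 genes was not tested. Of the cells in which nidogen, palladin and muscle phosphorylase are well known, mural and skeletal muscle cells were little seen by their markers. The 12 mural cell markers summed to 3.23 to 7.38 CPM, with Des and Higd1b at 0 in every group, and the 10 skeletal muscle markers to 1.10 to 5.86 CPM, with Myh1 and Tnnc2 at 0. Muscle markers were higher in neonatal (2.79 to 5.86 CPM, largely from Ttn) than in adult libraries (1.10 to 1.91 CPM), and their part was not tested. In EAE, the 12 fibroblast and meningeal markers summed per library to 256 to 558 CPM (CD11c-) and 945 to 1450 CPM (CD11c+). Neonatal CD11c+ sums lay between 26.2 and 44.4 CPM, above those of neonatal CD11c- (5.02 to 9.22) and of adult libraries (5.64 to 7.71). Fn1 alone had a mean of 435 CPM for the CD11c- and 1127 CPM for the CD11c+ subset of EAE. The part of fibroblasts was not tested. Of 12 endothelial markers, summing to 108 to 168 CPM, Emcn was at 0 in every group and Cldn5 at 0 in 3 groups. Cdh5 averaged 11.1 and 6.72 CPM in neonatal CD11c- and CD11c+ beside 2.74 CPM in adult microglia, and Egfl7 5.13 and 6.66 beside 0.363 CPM. Egfl7 was at 0.254 and 0.177 CPM in EAE CD11c- and CD11c+ microglia. Kdr was lower in neonatal CD11c- and CD11c+ than in adult microglia (5.48 and 4.84 beside 9.36 CPM). Pecam1 was near adult in neonatal CD11c- and lower in neonatal CD11c+ microglia (49.3 and 28.4 beside 50.8 CPM). In EAE CD11c- and CD11c+ microglia Pecam1 was at 19.7 and 12.7 CPM, below adult. Kdr, at 28.5 and 31.8 CPM, and Cdh5, at 4.65 and 3.66 CPM, were above adult there. The part of endothelial cells was not tested. Neuron markers summed to 6.14 to 41.0 CPM in neonatal and 0.957 to 2.64 CPM in the other libraries. Astrocyte markers summed to 30.1 to 62.6 CPM in neonatal and 124 to 223 CPM in the others. Slc1a3 made up most of the astrocyte sum, with means of 125 CPM in adult and 30.2 and 27.4 CPM in neonatal CD11c- and CD11c+ microglia. Of the 11 astrocyte markers, 8 reached a mean of 1 CPM in neonatal CD11c+, 3 in neonatal CD11c-, 2 in adult and 5 in each EAE group. The part of neurons and astrocytes was not tested.
The 4 Y-linked genes summed to 52.2 to 173 CPM in 7 of 8 neonatal libraries and to at most 0.353 CPM in adult and EAE libraries. Neonatal CD11c- library 19, at 0.346 CPM, was the exception. In that library the 5 genes stood at 244, 6.11, 62.5, 24.8 and 70.3 CPM in the order named at the start, each above every adult library. This is 1 library, which also differs from adult libraries in age, and the part of sex in the levels was not tested.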

How the data were processed

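RNA of sorted microglia was sequenced as 50-base single reads in 17 libraries, 3 or 4 per group. The authors aligned the reads to the mouse genome with STAR, allowing 2 mismatches, and deposited unnormalized read counts per Ensembl gene from HTSeq 0.5.4. Their processing notes also name samtools 0.1.19 and edgeR 3.12.0, and whether the counting used strand is not given in the sources used here. Libraries were grouped by their labels. The adult libraries are called total in one label and CD11c-negative in another and were taken as 1 adult group.

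Of 41388 gene IDs, 40254 were matched to a symbol and 17737 had no count. From the counts, levels were computed as CPM with TMM scaling, and RPKM used the union of exons. Genes with at least 1 CPM in at least 3 libraries (13060 genes) were tested with the quasi-likelihood test of edgeR 4.0.16 in R 4.3.3 (with limma 3.58.1), in 1 model of the 5 groups, with a prior count of 2 and Benjamini-Hochberg adjustment over all genes tested. An adjusted p of 0.01 or less passed. All p-values are two-sided. Intervals cover 95%. The floor of 3 counts and the counting intervals cover counting error only. DESeq2 1.42.0, its size factors, other filters, a fold threshold, fits of only the groups compared and fits without single libraries were alternatives. No pair of libraries held identical values. The statistics were tested on simulated data. Figures used matplotlib 3.10.9.

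The genes and all lists were chosen with earlier results of these data known. Besides the 5 genes, those named are their relatives, up to 4 genes per list and comparison with the smallest adjusted p, the genes at the edge of the choice, the nearest profiles and the nearest tested neighbours. Sequence windows and gene models are from RefSeq and GENCODE on GRCm38. Smim10l2b and Smim10 were not matched and are not analysed here.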

Additional observations from a re-analysis of the deposited data

Results flagged for a closer look

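In neonatal CD11c- library 17 the relative Smim10l1 stood at 91.8 CPM, while the lowest library of that group held 31.4 CPM. The gap to the nearest library was 0.879 of the group's range, past the critical value of Dixon's test, which chance passes in about 1 in 20 groups. It was 1 of 17 groups checked. The same library had 5.10% of its reads from mitochondrial genes, and the part of this in the Smim10l1 level was not tested.

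The effect of the CD11c subset differed between neonates and EAE for 3 genes of the lists or relatives named in the report. The difference of the log2 fold changes was 2.32 for Actn1 (SE 0.23, adjusted p = 1.5e-05 by edgeR), 2.26 for Pygl (SE 0.24, adjusted p = 3.0e-05) and 2.08 for Vcl (SE 0.29, adjusted p = 0.00046). All 3 were lower in CD11c+ than in CD11c- cells in EAE, where the summed neutrophil markers also were. In neonates these markers were lower in CD11c+ libraries too, at 20.5 to 22.9 CPM beside 309 to 1670 CPM in CD11c- libraries. Their part was not tested.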

How the results depend on the processing

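No paired analysis was possible because the labels give no shared replicate numbers and do not tie libraries to cell sorts or immunizations. The levels of the 5 genes kept within the replicate spread in 135 of 135 settings, and 436 of 440 fold changes against adult did. The others were -3.18 for Palld in EAE CD11c+ without library 3, -3.23 for Smim10l2a in EAE CD11c+ without library 2, and -1.94 and 2.72 for Pygm in EAE CD11c+ and neonatal CD11c+ without adult library 23. With DESeq2, 2900026A02Rik passed at 0.41 in neonates and 0.86 for the interaction. Nid2 in EAE was at -1.14 and no longer passed when only the 2 groups were fitted, and in neonates it ranged from -0.60 to -0.51 over fits without 1 library. Smim10l2a in neonates turned to -0.047 without libraries 1 and 17, and ranged from -0.049 to 0.13 without single libraries. The Pygm interaction ranged from -0.0039 to 0.14. The causes were not tested.
Counts of genes changed more. Genes of the same pattern numbered 42 with DESeq2, 57 without libraries 1 and 17, 5 with a log2 fold change of at least 1 and 14 to 35 without 1 library. Of genes in the EAE subset contrast, higher genes numbered 369 with DESeq2, 548 without libraries 1 and 17, 133 with the fold threshold, 88 with only the groups compared and 87 to 327 without 1 library, and lower genes 650 without libraries 1 and 17, 187 with only the groups compared and 189 to 445 without 1 library. In neonates, higher genes numbered 403 with the fold threshold, 483 with only the groups compared and 477 to 924 without 1 library, and lower genes 537 with DESeq2, 601 without libraries 1 and 17, 94 with the fold threshold, 136 with only the groups compared and 154 to 497 without 1 library. For the interaction, higher genes numbered 390 with DESeq2, 288 without the filter and 90 to 189 without 1 library, and lower genes 86, 29 and 4 to 22, with 55 without libraries 1 and 17 and 5 with only the groups compared. Against adult, lower genes in EAE CD11c- numbered 1344 without libraries 1 and 17, 1463 with only the groups compared and 264 to 835 without 1 library, and in EAE CD11c+ 2313 without libraries 1 and 17. With the fold threshold, counts against adult were 942 higher and 797 lower in neonatal CD11c-, 1479 and 953 in neonatal CD11c+, 270 lower in EAE CD11c- and 1291 higher and 708 lower in EAE CD11c+. Of the 15 genes among the 3 nearest profiles of each gene, 10 stayed among them with a prior count of 0.5. Depth limited Palld and Smim10l2a in EAE most, with 1 to 25 counts per library.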
